A study of Mus musculus with 9 samples.

Results

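Type I interferon-stimulated genes were examined in splenic type 2 dendritic cells from 8-day-old and adult mice. The 37 genes were taken by symbol from a fixed list of genes induced by type I interferon. The list was chosen with earlier results of these data known, so counts over it describe the genes and do not test the list. All 37 were found among the 24054 genes of the files and passed the filter on low counts that left 14452 genes for testing. All libraries came from spleens of C57BL/6 mice of the genotype Clec9a-Cre/Cre Rosa-tdTomato/tdTomato. Both copies of Clec9a carried the Cre insertion, so young and adult mice alike were without an intact copy of that gene, and tdTomato (TOM) marked cells in which Clec9a had driven Cre, either in the cell itself or in a progenitor. CD11c-enriched cells were sorted as live, autofluorescence-negative MHCII+ CD11c+ CD11b+ cells and split by TOM into 3 groups of 3 libraries: TOM+ cDC2 from young mice at postnatal day 8, TOM- DC2 from the same age, and TOM+ cDC2 from adults of 8 or 9 weeks. The comparison between young groups asks whether cells of different origin differ at 1 age. That of adult with young TOM+ cDC2 asks what changes with age. Adult TOM+ cDC2 and young TOM- DC2 differ in both age and origin, so that comparison does not isolate age. Several young spleens went into each sort, the sex of the mice behind each library was not given, and there was no adult TOM- group.

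Type I interferons are secreted proteins, the interferon-alphas and interferon-beta among them, that bind a shared receptor made of Ifnar1 and Ifnar2. The receptor-bound kinases Jak1 and Tyk2 then activate the complex ISGF3, which holds Stat2 and Irf9 and binds interferon-stimulated response elements near its target genes. Many targets act against viruses, others (Irf7, Stat2, Irf9) amplify the response and some (Usp18) damp it, and dendritic cells use the same response when they mature and present antigen.

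Libraries are named by group and by the number in their deposited names, and values per library are given in the order 81, 91 and 92 for young groups and 91, 92 and 95 for adults. Levels are the deposited TPM (transcript abundances corrected for transcript length and scaled to a common total), given as mean ± SD over 3 libraries where averaged. Differences are log2 fold changes (log2FC) ± SE from edgeR's quasi-likelihood test on read counts, adult minus young or TOM+ minus TOM-, with p-values adjusted over the 14452 genes, and a gene was called when its adjusted p was under 0.05 and its log2FC beyond 1. Between 12783252 and 22809401 reads fell on genes in each library, and reads on no annotated feature were 15.2% to 17.1% of all reads in adults against 8.84% to 12.8% in young libraries, a difference whose part in the results was not tested. The cDC2 markers Itgax (301 to 463 TPM), Zbtb46 (112 to 159 TPM) and Cd209a (146 to 641 TPM) were present in every library, and among cDC1 markers Xcr1 stayed at 3.79 TPM or less while Batf3, which cDC2 also express, was at 152 to 194 TPM. Clec9a itself stood at 0.05 to 0.34 TPM. The plasmacytoid dendritic cell marker Siglech did not exceed 1.32 TPM and Klk1 was at 0 in all 9 libraries, while Spib from the same list was at 38.3 to 62.2 TPM. The TOM- library 81 stood apart by its erythroid and neutrophil markers, whose summed levels reached 699 and 32.0 TPM there and at most 45.8 and 0.84 TPM elsewhere.

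In adult TOM+ cDC2, 36 of the 37 genes were higher than in young TOM+ cDC2 at an adjusted p under 0.05, and none was lower. Over all genes tested 19.5% were higher and 21% lower. Of the 37, 20 were called at least 2-fold higher, against 6.86% of all genes, and the median log2FC of the 37 was 1.20 against -0.05 over all genes. Eif2ak2 was the exception. Against young TOM- DC2, 34 genes were higher (16.9% of all genes) and none lower (19.4% of all genes), 19 of them called (4.78% of all genes), with a median log2FC of 1.00 against -0.07. Both comparisons use the same adult libraries, so they are not independent of each other. In these bulk samples, fewer cells with the response and less RNA per responding cell cannot be told apart.

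The summed level of the 37 genes was 2502, 2333 and 2339 TPM in young TOM+ cDC2, 2477, 2467 and 2416 TPM in young TOM- DC2, and 4455, 4459 and 4332 TPM in adult cDC2. All 3 adult sums lay above all 6 young sums, and the sums of the young groups overlapped. Ifitm3 alone made up much of each sum. Without it the sums were 1311 to 1544 TPM in young TOM+ cDC2, 1550 to 1676 TPM in young TOM- DC2 and 2881 to 3088 TPM in adults. The mean of log2(TPM + 1) over the genes, in which each gene counts equally, was 4.59 ± 0.17 in young TOM+ cDC2, 4.75 ± 0.11 in young TOM- DC2 and 5.73 ± 0.04 in adults (SD, n = 3 each). Gene by gene, libraries were compared in CPM (counts scaled to the library total after adjustment by edgeR's TMM factor). The 3 adult libraries lay above the 3 young TOM+ libraries for 36 genes (24% of all genes) and above the 3 TOM- libraries for 35 (21.5% of all genes). These counts depend on that scaling. In TPM the adult and young TOM+ libraries overlapped for Mx1, Mx2 and Samd9l as well as for Eif2ak2. The log2FC was not larger for genes with a high level. Across the 37 genes, which are not independent replicates, Spearman's rho between the adult against young TOM+ log2FC and the mean level was -0.22.

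**Figure D1:**
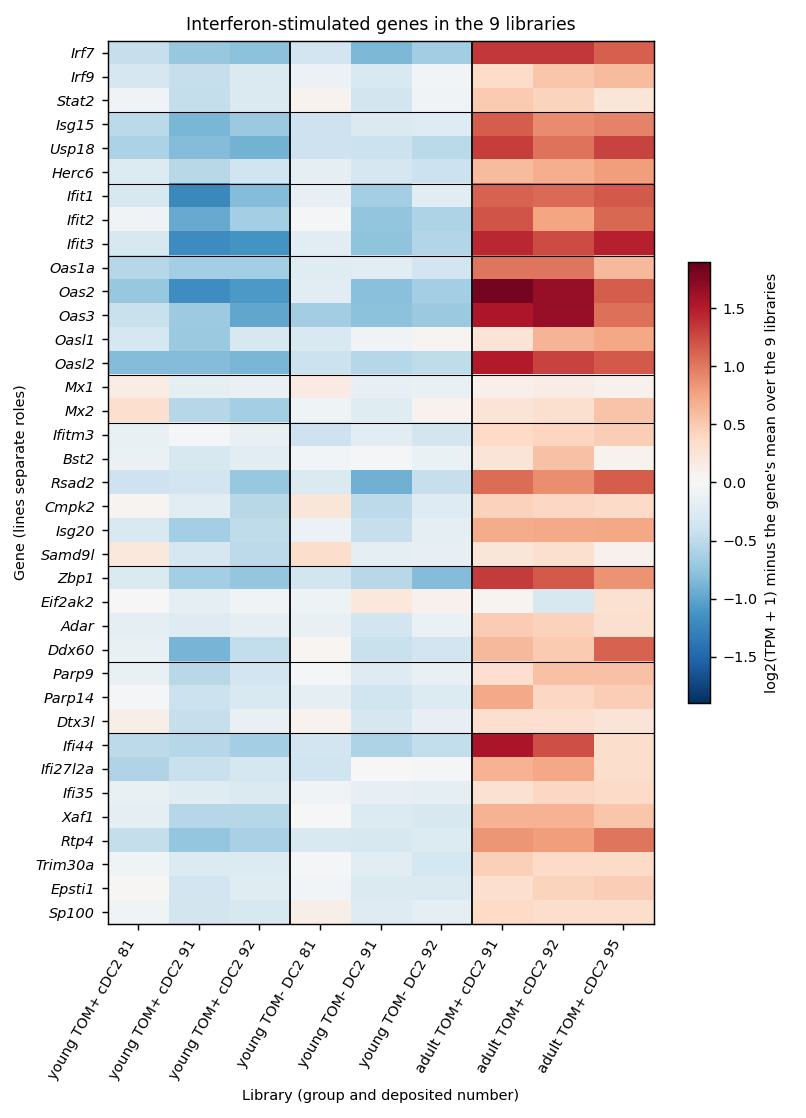
Levels of the 37 genes in the 9 libraries, as log2(TPM + 1) minus each gene's mean over all libraries, with genes grouped by role. The 3 adult columns are red for nearly every gene and the 6 young columns mostly blue; Mx1 and Eif2ak2 show little difference between groups.

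The order of the levels was led by Ifitm3, which restricts the entry of viruses into cells and was the most abundant of the 37 in every library. Ifitm3 was at 958, 1022 and 957 TPM in young TOM+ cDC2, 802, 917 and 823 TPM in young TOM- DC2 and 1367, 1402 and 1451 TPM in adults. The groups of different age did not overlap. Adults exceeded young TOM+ cDC2 by a log2FC of 0.65 ± 0.10 (adjusted p = 2.3e-04) and young TOM- DC2 by 0.89 ± 0.10 (adjusted p = 2.9e-05), less than 2-fold in both. Ifi27l2a, a small interferon-induced protein, came second in every library, at 189, 208 and 223 TPM in young TOM+ cDC2, 216, 280 and 275 TPM in young TOM- DC2 and 442, 470 and 355 TPM in adults. Its log2FC was 1.16 ± 0.16 against young TOM+ cDC2, which was called, and 0.87 ± 0.16 against young TOM- DC2, which passed the adjusted p only. Isg15 followed by its mean over all libraries. At the other end stood Ifi44, with a group mean of 0.13 ± 0.06 TPM in young TOM+ cDC2.

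**Figure D2:**
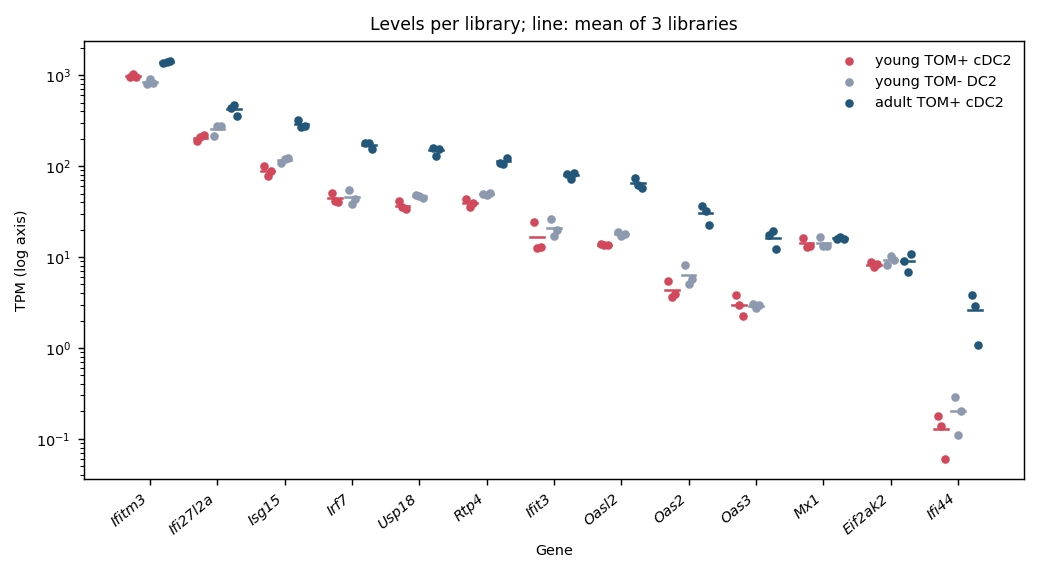
Levels of 13 of the genes in each library in TPM on a log axis, with points for libraries and lines for the mean of 3 libraries, coloured by group. Ifitm3 lies between 802 and 1022 TPM in young cells and Ifi44 at 0.29 TPM or less; adult points lie above all young points for every gene shown but Mx1 and Eif2ak2.

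Promoter sequences were searched for short motifs tied to interferon signalling. The 37 genes were listed as induced by interferon, so a high share of matches may follow from that choice alone. It does not bear on their change with age. RefSeq promoters of GRCm38.p6, running from 250 bases before to 50 bases after the start that the RefSeq promoter table uses, were at hand for 28 of the 37 genes. The core of the interferon-stimulated response element, written GAAANNGAAA and searched on both strands with overlapping matches allowed, occurred in 12 of the 28 (42.9%), and in 3.99% of the 27025 genes with a promoter entry. The core of the gamma-activated site, TTCNNNGAA, occurred in 8 of the 28 (28.6%) and in 9.55% of all entries. Among genes called higher in adults over young TOM+ cDC2, 7 of 15 with a promoter entry held the response element core, as did 5 of 13 of those not called. These shares describe letters in a window and say nothing of binding. The windows that follow, of 60 bases or, where the window reached into the annotated gene, of 30, show 6 of the called genes with a match, then Ifitm3 as the most abundant gene and Eif2ak2 as the gene that did not pass the test with age. They read 5′ to 3′ on the strand of the gene, and capitals mark every base covered by a core match on either strand, which on the opposite strand reads as TTTC blocks.
Isg15 (chr4:156200856-156200915, minus strand): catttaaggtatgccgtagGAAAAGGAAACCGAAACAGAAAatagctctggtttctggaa
Ifit1 (chr19:34640769-34640828, plus strand): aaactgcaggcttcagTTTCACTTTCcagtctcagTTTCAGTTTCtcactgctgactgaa
Ifit3 (chr19:34583397-34583426, plus strand): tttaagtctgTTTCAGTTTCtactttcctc
Oas1a (chr5:120907523-120907552, minus strand): ttctcggGAAATGGAAACTGAAAatctact
Oas3 (chr5:120777700-120777759, minus strand): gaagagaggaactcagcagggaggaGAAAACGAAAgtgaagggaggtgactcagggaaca
Rsad2 (chr12:26456538-26456597, minus strand): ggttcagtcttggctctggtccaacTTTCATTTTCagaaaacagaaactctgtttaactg
Ifitm3 (chr7:141010715-141010744, minus strand): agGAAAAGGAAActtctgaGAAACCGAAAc
Eif2ak2 (chr17:78882543-78882572, minus strand): gaaggcggagtccgccggGAAAACGAAAca

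Isg15 held 3 overlapping matches, the most of any of these genes, and Ifit1, Ifit3, Oas1a, Ifitm3, Bst2 and Ddx60 held 2 each, of which the window of Ifit3 shows the one nearer to the start. Of the genes shown, Ifit1, Ifit3 and Rsad2 had their matches on the strand opposite to the gene. Distances are counted from the start in the promoter table, which for 8 of the 12 genes is also the outermost RefSeq start of the gene. For Ifit3, Oas1a, Oas3 and Ddx60 it lies 410, 19, 25 and 14 bases inside that outermost start. Counted from the promoter table's start, the matches began between -222 in Stat2 and -14 in Oas1a, save in Ifitm3 and Eif2ak2, where they lay past it. Counted from the outermost start, the matches of 7 of the 12 genes lay wholly upstream, and those of Ifit3, Oas1a, Ddx60, Ifitm3 and Eif2ak2 did not. Trim30a, with a match starting at -36, completes the 12 genes. Eif2ak2, which did not pass the test with age, thus held a core match as did genes with large changes.

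**Figure D3:**
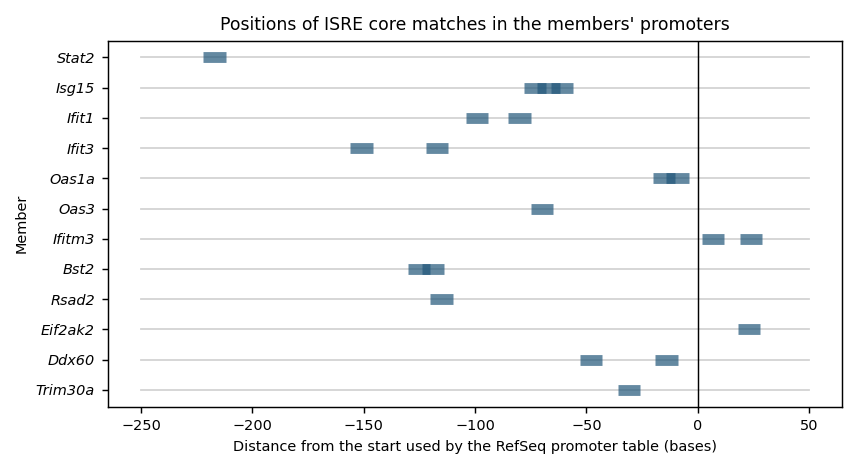
Positions of the response element core in the 12 promoters that hold it, in bases from the start the RefSeq promoter table uses, with grey lines for the searched window and blue bars for matches of 10 bases. Most bars lie upstream of that start, which in 4 genes is not the outermost RefSeq start; those of Ifitm3 and Eif2ak2 lie downstream.

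The transcription factors of the response rose in adults. Irf7, which turns the first interferon signal into broad transcription of interferon-alpha genes, was at 51.1, 41.9 and 40.1 TPM in young TOM+ cDC2, 54.2, 38.0 and 43.7 TPM in young TOM- DC2, and 179, 179 and 154 TPM in adults. Every adult library was well above every young library, and the young groups overlapped. The log2FC was 2.08 ± 0.12 against either young group (adjusted p = 1.9e-07 against TOM+ and 2.4e-07 against TOM-). Irf9 and Stat2, the DNA-binding and transactivating parts of ISGF3, changed less than 2-fold. Irf9 rose from 84.8 ± 5.3 TPM in young TOM+ cDC2 and 96.9 ± 7.9 TPM in young TOM- DC2 to 152 ± 13 TPM in adults. Stat2 rose from 43.7 ± 6.0 and 48.6 ± 7.1 TPM to 68.7 ± 6.5 TPM.

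The genes of ISG15 conjugation were all called in both comparisons with adults. Isg15, a ubiquitin-like protein that is attached to other proteins, was at 101, 78.3 and 88.3 TPM in young TOM+ cDC2, 110, 119 and 122 TPM in young TOM- DC2, and 321, 271 and 278 TPM in adults. The 3 groups did not overlap, with young TOM+ cDC2 lowest. The log2FC of adults was 1.82 ± 0.11 over young TOM+ cDC2 and 1.47 ± 0.11 over young TOM- DC2. Usp18, which removes ISG15 from proteins and blocks signalling at Ifnar2, was at 41.3, 35.5 and 33.7 TPM, then 47.9, 47.3 and 44.3 TPM, and in adults at 159, 131 and 157 TPM, again without overlap between the 3 groups. Its log2FC was 2.13 ± 0.09 over young TOM+ cDC2 and 1.84 ± 0.09 over young TOM- DC2 (adjusted p = 3.8e-08 and 1.4e-07). Herc6, the main ligase for ISG15 in mice, was at 14.7, 11.9 and 13.3 TPM in young TOM+ cDC2, 15.4, 13.98 and 13.04 TPM in young TOM- DC2 and 27.4, 29.3 and 31.5 TPM in adults. The young groups overlapped for Herc6, and its log2FC was 1.28 ± 0.09 and 1.21 ± 0.09.

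The IFIT genes, whose proteins bind foreign RNA and hold back its translation, were called in both comparisons. Ifit1 was at 12.9, 6.34 and 8.67 TPM in young TOM+ cDC2, 14.35, 9.94 and 14.01 TPM in young TOM- DC2, and 36.5, 35.0 and 37.5 TPM in adults. Ifit2 was at 11.99, 6.02 and 7.68 TPM, then 12.3, 7.06 and 8.04 TPM, and in adults at 30.1, 21.8 and 28.1 TPM. Ifit3 was at 24.1, 12.5 and 13.1 TPM, then 25.99, 17.1 and 20.04 TPM, and in adults at 82.0, 71.7 and 85.0 TPM. In all 3 genes the young libraries numbered 81 were the highest of their groups, and they still lay below every adult library. The log2FC over young TOM+ cDC2 was 2.08 ± 0.18 for Ifit1, 1.77 ± 0.21 for Ifit2 and 2.32 ± 0.18 for Ifit3, and over young TOM- DC2 it was 1.63 ± 0.17, 1.73 ± 0.21 and 2.09 ± 0.18. Ifit3 is uncertain in its level, because it has a near-identical copy and the uniquely placed reads made up 43.8% of the reads that RSEM assigned to it. With RSEM's expected counts its log2FC over young TOM+ cDC2 was 2.44 ± 0.20.

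The OAS family makes or resembles the enzymes that synthesise oligoadenylates, the activators of the ribonuclease RNase L. All 5 members were called over young TOM+ cDC2, and 4 of 5 over young TOM- DC2. Oas2 was at 5.41, 3.68 and 3.94 TPM in young TOM+ cDC2, 8.23, 5.10 and 5.78 TPM in young TOM- DC2 and 36.1, 32.1 and 22.4 TPM in adults, with log2FC of 2.93 ± 0.21 and 2.43 ± 0.20. Oas3 was at 3.78, 2.97 and 2.24 TPM, then 3.08, 2.75 and 2.94 TPM, and in adults at 17.6, 19.3 and 12.2 TPM, with log2FC of 2.60 ± 0.19 and 2.64 ± 0.19. For both genes library 95 was the lowest adult library and still lay above every young library. Oas1a was at 41.1, 38.2 and 38.3 TPM, then 51.3, 51.6 and 46.8 TPM, and in adults at 123, 124 and 92.6 TPM, with log2FC of 1.60 ± 0.13 and 1.33 ± 0.12. Its 3 groups did not overlap, though copies of the gene share reads with it, and uniquely placed reads were 48.0% of those RSEM assigned. Oasl2, an enzymatically active relative, was at 13.8, 13.7 and 13.4 TPM, then 18.7, 16.9 and 17.8 TPM, and in adults at 73.8, 62.5 and 57.6 TPM, with log2FC of 2.38 ± 0.11 and 2.02 ± 0.11. Oasl1, which restrains the translation of Irf7, was at 5.91, 4.33 and 6.09 TPM, then 6.17, 7.34 and 8.00 TPM, and in adults at 9.44, 12.7 and 13.5 TPM. Oasl1 showed the smallest change of the family, with a log2FC of 1.21 ± 0.18 over young TOM+ cDC2 and 0.87 ± 0.18 over young TOM- DC2.

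The Mx genes encode dynamin-like GTPases that trap viral components, and most laboratory strains, C57BL/6 among them, carry a defective Mx1. Neither was called. Mx1 was at 14.2 ± 1.9 TPM in young TOM+ cDC2, 14.4 ± 2.0 TPM in young TOM- DC2 and 16.02 ± 0.40 TPM in adults. Its log2FC of 0.29 ± 0.11 in both comparisons passed narrowly (adjusted p = 0.0484 and 0.0497), its groups overlapped in TPM, and it did not pass when low-count genes were kept (adjusted p = 0.070 in both). Mx2 was at 2.47 ± 1.38, 2.84 ± 0.40 and 4.25 ± 0.55 TPM. Its log2FC was 0.89 ± 0.27 over young TOM+ cDC2 (adjusted p = 0.018) and 0.70 ± 0.27 over young TOM- DC2 (adjusted p = 0.058, and 0.043 with the replicate block). The number used as the block did not pair adult with young libraries, so the blocked value does not outweigh the unblocked one.

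Among effectors of membranes and nucleotides, Rsad2 and Isg20 were called in both comparisons. Rsad2 (viperin), which makes a chain-terminating nucleotide, was at 8.22, 8.47 and 6.39 TPM in young TOM+ cDC2, 9.01, 5.45 and 7.98 TPM in young TOM- DC2 and 24.4, 21.5 and 26.1 TPM in adults, with log2FC of 1.77 ± 0.15 and 1.84 ± 0.16. Isg20, an exonuclease, was at 53.2, 41.0 and 46.4 TPM, then 60.1, 47.6 and 56.9 TPM, and in adults at 107, 107 and 108 TPM, with log2FC of 1.31 ± 0.10 and 1.09 ± 0.10. Both showed adult libraries close to each other and clear of the young ones. Cmpk2, the nucleotide kinase encoded beside Rsad2, changed less, with a log2FC of 0.80 ± 0.18 over young TOM+ cDC2 and 0.76 ± 0.18 over young TOM- DC2. Bst2 (tetherin), which holds budding virus at the cell surface, rose from 81.7 ± 5.0 and 90.5 ± 3.0 TPM to 118 ± 20 TPM. Samd9l, which restricts poxviruses, was at 38.3 ± 10.3, 44.1 ± 9.5 and 50.2 ± 4.0 TPM. Its young library 81 lay within or above the adult range in both young groups. The log2FC of Samd9l was 0.53 ± 0.16 over young TOM+ cDC2 (adjusted p = 0.017) and 0.36 ± 0.16 over young TOM- DC2 (adjusted p = 0.094). With the replicate block the latter was 0.60 (adjusted p = 6.0e-06). That block leaves the young libraries 81 without an adult partner, so its value does not outweigh the unblocked one.

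Of the nucleic acid sensors and editors, Zbp1 and Ddx60 were called in both comparisons. Zbp1, which senses left-handed nucleic acids and can start necroptosis, was at 34.3, 26.3 and 24.7 TPM in young TOM+ cDC2, 32.5, 28.4 and 23.1 TPM in young TOM- DC2 and 106, 94.1 and 75.8 TPM in adults, with log2FC of 2.14 ± 0.17 and 2.15 ± 0.17. Ddx60, a helicase tied to RIG-I-like receptor signalling, was at 6.08, 3.24 and 4.69 TPM, then 7.02, 4.86 and 5.11 TPM, and in adults at 11.1, 10.1 and 16.02 TPM, with log2FC of 1.55 ± 0.21 and 1.30 ± 0.21. Adult and young libraries did not overlap for either gene. Adar, which edits double-stranded RNA, rose less, from 25.6 ± 0.8 and 25.4 ± 2.3 TPM to 39.5 ± 2.6 TPM. Eif2ak2 (PKR), the kinase that stops translation on double-stranded RNA, was at 8.81, 7.68 and 8.34 TPM in young TOM+ cDC2, 8.10, 10.2 and 9.37 TPM in young TOM- DC2 and 9.13, 6.90 and 10.9 TPM in adults. All 3 groups overlapped for Eif2ak2. Its log2FC was 0.22 ± 0.15 over young TOM+ cDC2 (adjusted p = 0.28) and 0.10 ± 0.15 over young TOM- DC2 (adjusted p = 0.65).

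The genes of ADP-ribosylation moved by about 2-fold or less. Parp14, a mono-ADP-ribosyltransferase, was at 9.59, 7.21 and 7.94 TPM in young TOM+ cDC2, 8.62, 7.41 and 8.10 TPM in young TOM- DC2 and 16.9, 13.3 and 14.03 TPM in adults. It was called over young TOM- DC2 only, with a log2FC of 1.06 ± 0.11, and its log2FC of 0.99 ± 0.11 over young TOM+ cDC2 lay just under the limit, so the young groups are not thereby shown to differ. Parp9 and Dtx3l, which work as a complex of ADP-ribosyltransferase and ubiquitin ligase, had a log2FC over young TOM+ cDC2 of 0.98 ± 0.10 and 0.59 ± 0.12.

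Among the remaining induced genes, Ifi44, an interferon-induced antiviral protein, had the largest log2FC of the 37 and the lowest level. It was at 0.18, 0.14 and 0.06 TPM in young TOM+ cDC2, 0.29, 0.11 and 0.20 TPM in young TOM- DC2 and 3.85, 2.88 and 1.09 TPM in adults, which came from 2 to 8 reads in young libraries and 83, 62 and 31 reads in adults. Its log2FC of 4.58 ± 0.59 over young TOM+ cDC2 and 3.94 ± 0.55 over young TOM- DC2 had the widest errors of the 37. Rtp4, a chaperone of receptors, was at 44.1, 36.0 and 39.4 TPM, then 49.4, 48.8 and 50.6 TPM, and in adults at 110, 107 and 124 TPM, without overlap between the 3 groups. Its log2FC was 1.63 ± 0.09 and 1.34 ± 0.09. Xaf1, a pro-apoptotic protein, was at 13.01, 10.01 and 9.93 TPM, then 14.9, 12.3 and 11.9 TPM, and in adults at 24.3, 24.2 and 22.1 TPM, with log2FC of 1.20 ± 0.12 and 1.00 ± 0.12. The others changed less than 2-fold, with log2FC over young TOM+ cDC2 of 0.74 ± 0.08 for Trim30a, 0.73 ± 0.09 for Epsti1, 0.72 ± 0.07 for Ifi35 and 0.71 ± 0.08 for the nuclear body protein Sp100. Ifi35, Epsti1 and Sp100 were already among the more abundant genes in young TOM+ cDC2, at 126 ± 6, 131 ± 19 and 119 ± 12 TPM.

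**Figure D4:**
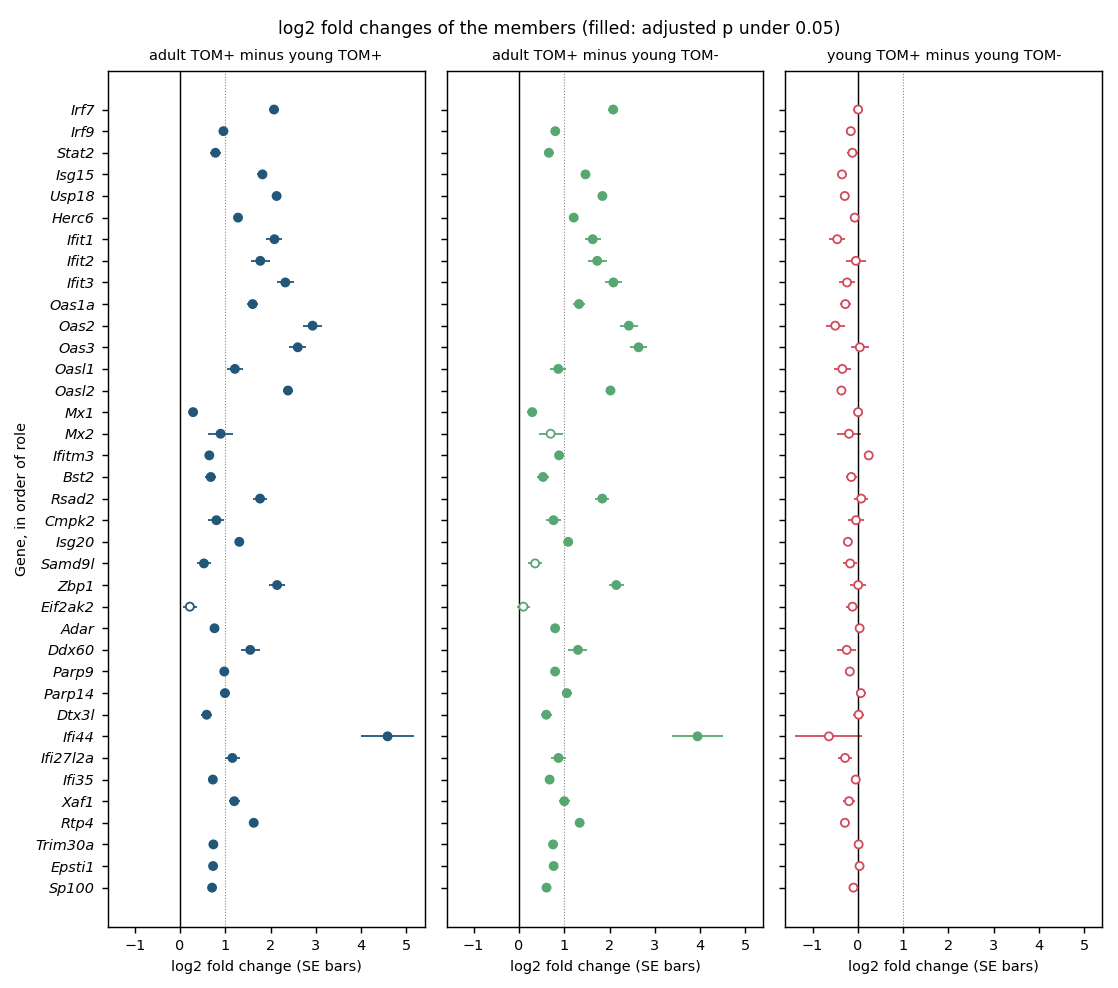
log2FC of the 37 genes with bars of 1 SE in the 3 comparisons, filled where the adjusted p was under 0.05 and with a dotted line at a log2FC of 1. In both comparisons with adults every point lies above 0, and in the comparison of young groups no point is filled and 26 of 37 lie below 0.

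At 8 days of age, TOM+ cDC2 and TOM- DC2 differed little in these genes. No gene of the 37 passed the adjusted p by edgeR or by DESeq2, and 8 had an unadjusted p under 0.05 by edgeR (9.38% of all genes) and 7 by DESeq2 (8.67% of all genes). Over all genes 0.125% were higher and 1.47% lower in TOM+ cells. The median log2FC was -0.15 against 0.00 over all genes, and 26 of the 37 had a log2FC below 0. For Isg15, Usp18, Oas1a, Oasl2, Bst2, Ifi35 and Rtp4 all 3 TOM+ libraries lay below all 3 TOM- libraries in CPM (7 of 37, against 9.26% of all genes). The young libraries with the same number deviated from their group means together, most clearly those numbered 81 (r = 0.50) and least clearly those numbered 91 (r = 0.18). TOM+ library 92 and TOM- library 91, of different numbers, reached r = 0.19, so pairing by number is not shown for 91. Within the 3 same-numbered pairs, 20 of the 37 genes were lower in the TOM+ library every time (21.4% of all genes). Only Ifitm3 was higher every time (21.7% of all genes). With the number as a replicate block, 7 genes were lower in TOM+ cDC2 at an adjusted p under 0.05 (4.34% of all genes) and 1 was higher (2.23% of all genes). None of them lay beyond a log2FC of 1, where 1.79% of all genes were lower and 0.104% higher with the block.

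Those blocked differences were small beside the differences with age. Isg15 was lower in TOM+ cDC2 by a log2FC of -0.35 (adjusted p = 0.033), Usp18 by -0.29 (adjusted p = 0.017), Rtp4 by -0.29 (adjusted p = 0.024) and Ifi27l2a by -0.27 (adjusted p = 0.021). Ifit1 had a log2FC of -0.48 (adjusted p = 0.035), Oas2 of -0.51 (adjusted p = 0.0047) and Oasl2 of -0.36 (adjusted p = 0.0072). Ifitm3 went the other way, at 0.24 (adjusted p = 0.015). Without the block the adjusted p of these 8 genes lay between 0.17 and 0.66. Irf7 had a log2FC of 0.01 ± 0.11 and Zbp1 of 0.01 ± 0.17, and the largest difference in size, -0.64 ± 0.74 for Ifi44, was within its error. Marker genes of other cells differed between the young groups as well. The summed level of 8 macrophage markers was 174 to 223 TPM in TOM+ cDC2 and 284 to 347 TPM in TOM- DC2. Their part in the small differences above was not tested.

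The young libraries numbered 81 were the highest of their group in both young groups for 18 of the 37 genes (23.2% of all genes). Without TOM- library 81, 35 genes were higher in adults than in young TOM- DC2 and 19 were called. The marker lists of macrophages, monocytes and B cells summed to less in adults than in either young group, and their part in the difference with age was not tested. The macrophage list summed to 101 to 153 TPM, 6 monocyte markers to 21.3 to 25.1 TPM against 42.5 to 58.4 TPM in young TOM+ cDC2 and 32.9 to 43.0 TPM in young TOM- DC2, and 6 B cell markers to 41.1 to 54.0 TPM against 61.0 to 70.7 and 70.0 to 80.8 TPM. The 8 plasmacytoid dendritic cell markers summed to 63.3 to 65.2 TPM in adults, 75.7 to 85.7 TPM in young TOM+ cDC2 and 64.5 to 86.8 TPM in young TOM- DC2, and none of the 7 that were tested differed between adult and young TOM+ cells at an adjusted p under 0.05. The summed markers of cDC2 were 29956 to 32169 TPM in adults and 18715 to 18998 TPM in young TOM+ cDC2, a sum set mostly by the MHC class II gene H2-Ab1 (27691 to 29642 TPM in adults and 16790 to 16868 TPM in young TOM+ cDC2). Of the 10 cDC2 markers, 7 were higher and 2 lower in adults than in young TOM+ cDC2. Esam, which marks a cDC2 subset, was at 72.6 to 90.7 TPM in adults and 14.4 to 27.0 TPM in young TOM+ cDC2. In young TOM- DC2 Esam was at 23.2 to 37.9 TPM. Clec4a4 was at 244 to 280 TPM in adults and 96.1 to 130 TPM in young TOM+ cDC2. The paper reports that cells high in ESAM were a smaller part of cDC2 in neonatal than in adult mice. For the age sequenced here, it describes their share as still slightly below the adult one. Those are shares of cells by flow cytometry, whereas the values here are RNA levels. The part of subset make-up in the difference with age was not tested. Itgam, the CD11b chain used in the sort, was at 73.0 to 86.2 TPM in adults and 126 to 168 TPM in young TOM+ cDC2, and Sirpa was at 463 to 485 TPM against 676 to 862 TPM.

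Among genes upstream of the response, the ligands were all but absent from the libraries: of 18 type I interferon genes, 3 had any read, no gene had more than 3 reads in a library, and all libraries together held 11 reads. Ifnb1, the interferon-beta gene, had 1 read in young TOM+ library 91 and 1 in adult library 91. Transcripts of this rarity are not detectable as a difference at this depth. The receptor chains were well expressed in every group. Ifnar1 stood at 40.5 ± 2.2 TPM in young TOM+ cDC2, 40.8 ± 2.7 TPM in young TOM- DC2 and 43.0 ± 4.5 TPM in adults, with a log2FC of 0.22 ± 0.08 in adults over young TOM+ cDC2 (adjusted p = 0.045). Ifnar2 stood at 149.7 ± 15.4, 170.3 ± 17.5 and 162 ± 22 TPM, with a log2FC of 0.00 ± 0.11. The kinase Jak1 had a log2FC of 0.24 ± 0.11 that did not pass (adjusted p = 0.095). With the replicate block, which did not pair adult with young libraries, it was 0.40 (adjusted p = 4.6e-05). Tyk2 fell by 0.44 on the log2 scale (SE 0.11, adjusted p = 0.0067).

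Among the interferon regulatory factors, Irf1, induced by both interferon types, rose from 156 ± 6 and 166 ± 8 TPM to 281 ± 19 TPM, at a log2FC of 0.98 ± 0.10 and 0.92 ± 0.10. Irf3, the factor that starts interferon-beta transcription, had a log2FC of 0.51 ± 0.11 over young TOM+ cDC2. Irf8, a lineage factor of dendritic cells, rose by 1.10 ± 0.11 over young TOM+ cDC2 and by 0.34 ± 0.11 over young TOM- DC2. The feedback inhibitor Socs1 had a log2FC of 0.21 ± 0.21 (adjusted p = 0.45). In all, 9 of the 16 upstream genes tested were higher in adults than in young TOM+ cDC2 and 3 were lower (Socs3, Irf5 and Tyk2), and against young TOM- DC2 8 were higher and Tyk2 was lower. Over all genes, 19.5% were higher and 21% lower in the first comparison and 16.9% and 19.4% in the second, so the share of lower genes lay near or below that of all genes.

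Other genes known to be induced by interferon were mostly higher in adults too, by a smaller median. Of 49 tested, 34 were higher in adults than in young TOM+ cDC2 and 2 lower (Gbp7 and Lap3), at a median log2FC of 0.77 (19.5% of all genes were higher and 21% lower), and against young TOM- DC2 33 were higher and the same 2 lower, at a median of 0.66 (16.9% and 19.4% of all genes). The largest changes over young TOM+ cDC2 were those of Oas1g (2.75 ± 0.49), the ectoenzyme Cd38 (1.73 ± 0.18) and Ifi27 (1.60 ± 0.10). Oas1g shares near-identical sequence with Oas1a, so the 2 genes are not independent. Of 19 genes led by interferon-gamma, 14 were higher in adults than in young TOM+ cDC2 and none lower, at a median log2FC of 0.98, and likewise 14 and none against young TOM- DC2, at a median of 0.86, beside the same shares of all genes. The immunity-related GTPases Tgtp1 and Tgtp2 led this list, at 3.37 ± 0.32 and 2.43 ± 0.24 over young TOM+ cDC2, although each may take reads from the other. Cxcl9, a chemokine that draws T cells, was at 3.01, 2.52 and 3.03 TPM in young TOM+ cDC2, 2.27, 2.61 and 2.46 TPM in young TOM- DC2 and 12.3, 11.9 and 13.8 TPM in adults, with a log2FC of 2.28 ± 0.14 over young TOM+ cDC2. Many genes answer to both interferon types, and these lists share Irf1 and Socs1 between the upstream and interferon-gamma groups, so the counts do not separate one interferon from the other.

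**Figure D5:**
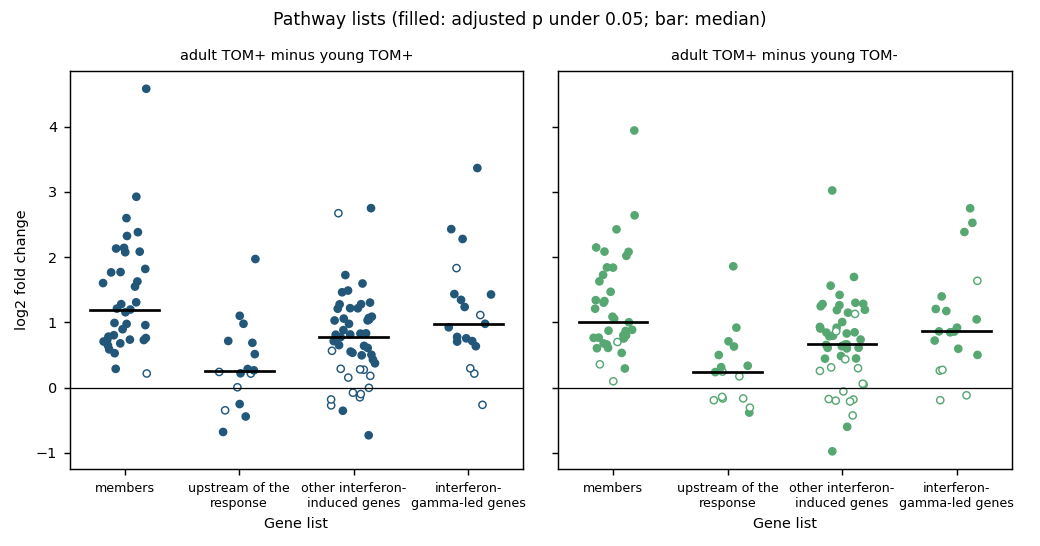
log2FC of adult TOM+ cDC2 over young TOM+ cDC2 and over young TOM- DC2 for the 37 genes, 16 upstream genes, 49 other interferon-induced genes and 19 interferon-gamma-led genes, filled where the adjusted p was under 0.05, with bars at the medians. The upstream genes scatter around a median of 0.25 over young TOM+ cDC2, below the medians of the induced lists.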

How the data were processed

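Messenger RNA of 9 libraries was sequenced with SMART-seq v4 and MicroPlex v2 chemistry as single-end reads. The authors aligned them to mm10 with STAR and deposited its unnormalized counts of reads per gene, and they deposited RSEM expected counts and TPM, scaled to each library's total. The deposited FPKM were not used. Groups came from the sample labels. STAR's summary lines (26.1% to 31.6% of reads: unmapped, multimapping, no feature, ambiguous) were left out. The unstranded column was used, so overlapping and antisense genes cannot be told apart, and genes with near-identical copies are uncertain.

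Counts were tested with edgeR 4.0.16 (R 4.3.3, quasi-likelihood, TMM, all 9 libraries, average count of at least 1), with Benjamini-Hochberg adjustment over 14452 genes. This test was checked on simulated data. Alternatives were DESeq2 1.42.0, RLE factors, other count filters, only 2 groups, a replicate block, rounded expected counts, limma 3.58.1 on log2(TPM + 1) and log2(TPM + 0.1), and leaving out each library. Same-numbered young libraries deviated from their group means together (r = 0.50, 0.18 and 0.33 for 81, 91 and 92). TOM+ library 92 and TOM- library 91, of different numbers, reached r = 0.19, so pairing by number is not shown for 91. What the number marks was not given. Adult libraries did not pair with young ones (r of at most 0.04). TMM factors were 1.02 to 1.06, 1.04 to 1.08 and 0.894 to 0.928 in young TOM+, young TOM- and adult libraries. No 2 libraries of a group were copies (chi-square per gene of at least 9.18). The study calls its samples biological replicates and pooled young spleens; the mice behind each library were not given in the sources used here, so p-values measure the spread between these libraries.

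The 37 genes, the pathway lists and the marker lists were chosen with earlier results of these data known, and the members were given no test as a list. Values in every library were given for genes called in any comparison and the 3 most abundant; others by group. Of the pathway lists, 9 set upstream genes and up to 3 genes a list with the largest passing log2FC were named; Socs3, Irf5, Gbp7, Lap3 and Ifitm1 were named after their values were seen. Marker lists covered cDC2, cDC1, plasmacytoid dendritic cells, monocytes, macrophages, B cells, T and NK cells, neutrophils and erythroid cells. Summed markers of cDC1 were 177 to 207 TPM and of T and NK cells at most 5.24 TPM in all libraries. Adgre1, Ly6g, Ifit3b, Ifit1bl1 and Ifit1bl2 were not analysed here, and a few genes of the lists are not reported here. Promoters were RefSeq entries of GRCm38.p6.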

Additional observations from a re-analysis of the deposited data

Results flagged for a closer look

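2 genes of the pathway lists, neither of them among the 37, differed between the young groups by the test of that difference. Their difference from adults therefore depended on the young group chosen. Irf8 was lower in young TOM+ cDC2 (23.6 ± 3.1 TPM) than in young TOM- DC2 (41.5 ± 2.5 TPM), at a log2FC of -0.77 ± 0.11 by edgeR's quasi-likelihood test (adjusted p = 0.0027), in 3 of 3 same-numbered pairs. Ifitm1, a relative of Ifitm3 that is named because its values stood out, was at 138 ± 17 TPM in young TOM+ cDC2 and 229 ± 33 TPM in young TOM- DC2, a log2FC of -0.72 ± 0.13 (edgeR, adjusted p = 0.016), in 3 of 3 same-numbered pairs. Adults were at 47.2 ± 2.0 TPM for Irf8 and 179 ± 33 TPM for Ifitm1, which placed Ifitm1 between the young groups.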

How the results depend on the processing

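In both comparisons with adults, no setting made any of the 37 genes lower at an adjusted p under 0.05. Across settings 33 to 36 genes were higher than in young TOM+ cDC2 and 33 to 36 higher than in young TOM- DC2. Without 1 library the median log2FC ranged from 1.15 to 1.31 over young TOM+ cDC2 and from 0.97 to 1.07 over young TOM- DC2. It was 1.02 and 0.80 with limma on log2(TPM + 1), 1.10 and 0.85 on log2(TPM + 0.1), where the median of all genes shifted by -0.12 and -0.15, and 1.15 over young TOM- DC2 with the replicate block. Eif2ak2 turned direction against young TOM- DC2, to -0.0791 with the block, -0.0498 and -0.0564 with limma on log2(TPM + 1) and log2(TPM + 0.1), and ranged from -0.0315 (without adult library 95) to 0.236 (without adult library 92) when 1 library was left out, with -0.0133 without TOM- library 81; the cause was not tested. Otherwise only Mx1, Mx2 and Samd9l moved across the adjusted p of 0.05 in these settings. Between young groups the block gave 7 lower and 1 higher of the 37, and without young TOM+ library 81 Ifit1 was lower (1 gene).

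Small counts in the pathway lists moved most. Over young TOM+ cDC2, 4 other induced genes were lower with the block, 6 with limma at either pseudocount and 1 to 2 without 1 library; 1 interferon-gamma-led gene was lower with only 2 groups, the block or limma at either pseudocount, and 0 to 1 without 1 library; 5 upstream genes were higher with limma on log2(TPM + 1). Over young TOM- DC2, lower genes numbered 5 upstream, 5 other induced and 1 interferon-gamma-led with the block, 2 upstream and 4 other induced with limma at either pseudocount, and 0 to 2 upstream without 1 library, and 3 upstream genes were higher with limma at either pseudocount. Between young groups the block gave 1 higher and 2 lower upstream genes, 2 higher and 5 lower other induced genes, and 1 higher and 1 lower interferon-gamma-led gene; DESeq2 gave 1 higher other induced gene, expected counts 1 lower interferon-gamma-led gene, limma 0 lower other induced genes at either pseudocount, and leaving out 1 library 0 to 1 higher and 0 to 1 lower other induced genes. Depth limits Ifi44 in young cells and the ligands.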
